A study of Mus musculus with 40 samples.

Results

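Peaks of NIPBL, the protein that loads cohesin onto DNA, were compared between Brwd1 knockout small pre-B cells (KO) and oligomycin-treated wild type cells of the same stage (ATPneg). The comparison rests on 4 of the 40 samples of the series, with 2 NIPBL ChIP-seq libraries per group. The KO libraries came from Brwd1-/- mice and their cells were used without culture. The ATPneg libraries came from wild type mice, and their cells were cultured for 2 h with 126 nM oligomycin A, an inhibitor of the mitochondrial ATP synthase, before chromatin was prepared. All 4 used primary cells sorted by flow cytometry from bone marrow, with 2000000 cells per ChIP, and 2 libraries of untreated wild type cells (WT) served as a further set of values. Ages, strain and the number of animals behind each library are not given in the sources used here. The 2 groups differ in genotype, in drug and in time in culture, and these cannot be told apart. KO peaks were called against an input of KO cells and ATPneg peaks against an input of WT cells, per the labels' matching of inputs.

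Cohesin is a ring of SMC1, SMC3 and RAD21 that holds DNA strands and extrudes chromatin loops. NIPBL, with its partner MAU2, stimulates the ATPase of cohesin, so that the ring can be loaded and can move; WAPL releases the ring, and CTCF stops its movement at oriented binding sites. In pre-B cells, loops made in this way bring distant V segments to the recombining J segments of the immunoglobulin light chain locus. BRWD1 is a chromatin protein with bromodomains that bind acetylated histones, and it acts at this stage of B cell development. Oligomycin lowers the supply of ATP that both cohesin and chromatin remodellers use.

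A consensus peak was a replicate 1 peak that overlapped a replicate 2 peak by at least 1 bp. KO cells had 1125 consensus peaks and ATPneg cells had 8154. Of the KO peaks, 1011 overlapped an ATPneg consensus peak (shared) and 114 did not (KO-only). Of the ATPneg peaks, 1009 overlapped a KO peak and 7145 did not (ATPneg-only). Among the 114 KO-only peaks, 73 overlapped no peak of either ATPneg library, and among the 7145 ATPneg-only peaks, 5683 overlapped no peak of either KO library.

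The peak names inside 2 NIPBL lists did not match their labels, and the labels were followed throughout. The list labelled KO replicate 2 held peaks named for WT replicate 1, and the list labelled WT replicate 1 held peaks named for KO replicate 2. By length, the list labelled KO replicate 2 (2048 peaks) was close to that of KO replicate 1 (2333 peaks), and the list labelled WT replicate 1 (25979 peaks) was longer. KO replicate 1 peaks were found again in 48.2% of cases in the list labelled KO replicate 2, in 72.1% in the list labelled WT replicate 1 and in 86.1% in that of WT replicate 2. The deposited read counts ran the way the labels say: between columns, the chi-square per region was 1.27 for the 2 KO libraries, 3.74 for the 2 WT libraries and 8.45 to 10.8 for a KO with a WT library. This value rises with the number of reads, and the WT libraries had more, so the pairs are not on 1 scale. A KO with a WT library still had a higher value than the WT pair, with fewer reads. Class shares, score bins, gene counts and input densities that rest on the list labelled KO replicate 2 are also given with KO replicate 1 alone, which leaves 1826 shared, 507 KO-only and 6332 ATPneg-only peaks. That alternative was chosen after seeing the data, and it also drops the need for a second KO replicate. Reads at the classes, clusters and named peaks are given with both KO lists only. Reads within the merged NIPBL regions numbered 3803369 and 3784506 in the KO libraries and 17681215 and 16916106 in the WT libraries. Counts of the ATPneg libraries were not used here, and their depth is unknown, so a longer list or a higher score cannot be told apart from deeper sequencing. WT H3K27ac peaks, taken as the mark of active elements, covered the promoters of 11 of 20 pre-B receptor and recombination genes and 13 of 27 B lineage transcription factors, but also 7 of 11 T cell, 3 of 8 erythroid and 3 of 10 myeloid marker genes, against 21.9% of all protein-coding symbols. The promoters of Cd79b, Pax5 and Ebf1 were among those covered, and those of Cd79a, Vpreb1 and Igll1 were not; the cell label thus could not be checked closely with these lists.

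The ATPneg lists were longer than the KO lists in every pairing. The KO lists held 2333 and 2048 peaks, and the ATPneg lists held 14522 and 10224. The mean was 2191 ± 202 peaks in KO and 12373 ± 3039 in ATPneg (SD, n = 2 each), and the groups did not overlap. An exact two-sided permutation test of 2 against 2 libraries gave p = 0.333, the smallest p this design allows, and 0.389 after Benjamini-Hochberg adjustment over 7 measures. This test cannot pass a threshold of 0.05 between these groups of libraries. Lowest scores of the lists ran from 5.00067 to 5.01233. Median scores were 13.4 and 12.1 in the KO lists and 11.3 and 11.5 in the ATPneg lists. Highest scores were 46.5 and 53.6 in KO and 72.5 and 86.3 in ATPneg.

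**Figure D1:**
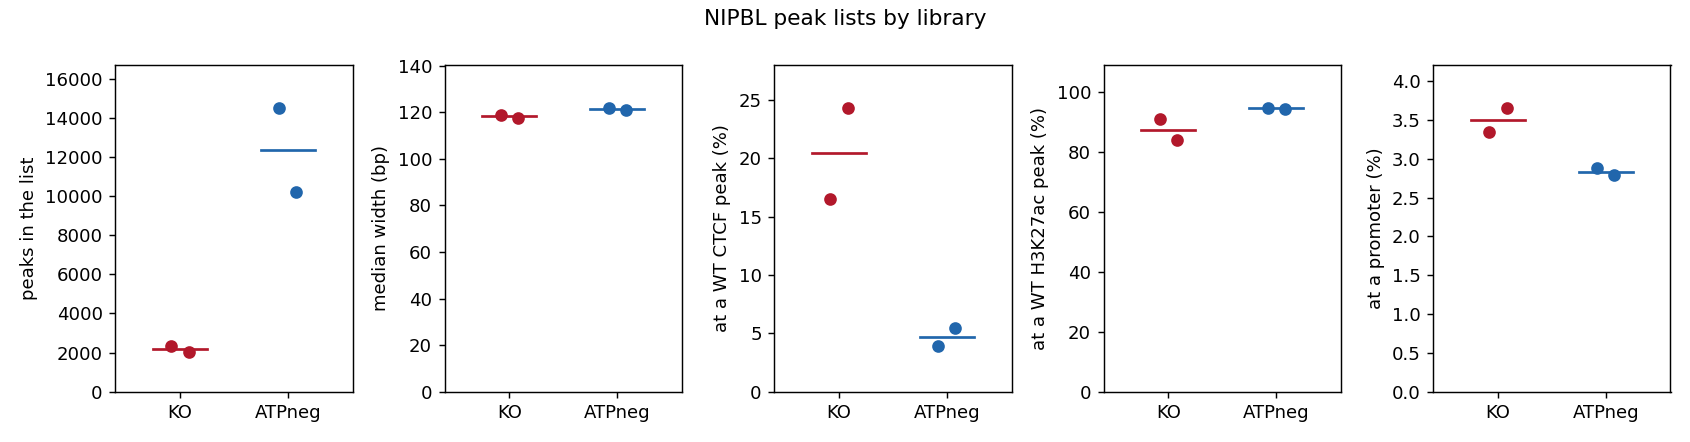
Values of each NIPBL peak list, with points for the 2 KO and the 2 ATPneg libraries and lines for group means. From left to right, the axes give the number of peaks, the median width in bp, and the percentages of peaks that overlap a WT CTCF consensus peak, a WT H3K27ac consensus peak and a promoter region (start site ± 2 kb). KO lists are shorter and hold a larger percentage at WT CTCF peaks, 16.5 and 24.4 against 3.91 and 5.50 in ATPneg.

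Peaks of both groups were narrow. Median width was 119 and 117.5 bp in the KO libraries and 122 and 121 bp in the ATPneg libraries. Peaks at WT CTCF sites made up 16.5% and 24.4% of the KO lists and 3.91% and 5.50% of the ATPneg lists. Peaks at WT H3K27ac made up 91.0% and 83.9% of the KO lists and 94.8% and 94.4% of the ATPneg lists. Promoters, within 2 kb of a start site, held 3.34% and 3.66% of the KO peaks and 2.89% and 2.79% of the ATPneg peaks. The groups did not overlap in any of these 4 measures, nor in the share at KO CTCF peaks (3.34% and 5.57% in KO, 0.544% and 0.714% in ATPneg), and each had the exact permutation p of 0.333. The share at dense input, over 100 input reads per kb, overlapped between the groups (99.0% and 94.5% in KO, 97.6% and 98.0% in ATPneg), with an exact permutation p of 1. When each list was reduced to its 2048 highest-scored peaks, the mean difference of KO minus ATPneg in the CTCF share was 3.71 percentage points, against 15.8 for the full lists. That setting changes the lowest score as well as the length of a list, and their parts were not tested; the CTCF share was 1.23% in the lowest and 27.5% in the highest of 10 score bins of the ATPneg peaks.

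The KO lists overlapped the ATPneg lists more than they overlapped each other. Of KO replicate 1 peaks, 85.0% and 80.4% lay at a peak of ATPneg replicates 1 and 2, while 48.2% lay at a peak of KO replicate 2. Of KO replicate 2 peaks, 85.4% and 83.0% lay at a peak of ATPneg replicates 1 and 2, while 54.8% lay at a peak of KO replicate 1. In the other direction, 13.6% and 12.04% of ATPneg replicate 1 peaks and 18.3% and 16.6% of ATPneg replicate 2 peaks lay at a peak of KO replicates 1 and 2. The lists being searched differ in length from 2048 to 14522 peaks, which sets these shares in part.

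Nearly all KO consensus peaks were also ATPneg peaks. The shared fraction was 89.9% of KO peaks (95% exact binomial interval 88.0 to 91.6) and 12.4% of ATPneg peaks (11.7 to 13.1). Intervals here treat peaks as independent and cover counting error only, not the spread between libraries. With the list of KO replicate 1 alone the fractions were 78.3% of KO and 22.3% of ATPneg peaks, and with KO replicate 2 alone they were 81.1% and 20.3%. With 2048 peaks from each list before the consensus step, 63.2% of KO and 43.8% of ATPneg consensus peaks were shared. Both groups were also found in WT: 66.1% of KO peaks (63.3 to 68.9) and 74.2% of ATPneg peaks (73.2 to 75.1) overlapped 1 of the 20548 WT consensus peaks, and 70.5% of KO replicate 1 peaks did. Over the 8268 merged places that held a peak in either group, 1009 held both, 114 KO alone and 7145 ATPneg alone. A peak in at least 1 WT list was present at 91.7% of the places with both, at 47.4% of those with KO alone and at 97.1% of those with ATPneg alone. From KO replicate 1 alone, it was present at 93.7% of shared, 66.5% of KO-only and 97.2% of ATPneg-only peaks.

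Shared peaks were more frequent towards the top of the ATPneg ranking. ATPneg consensus peaks were ordered by their mean score percentile in the 2 lists and cut into 10 bins of 815 or 816 peaks. The share with a KO peak was 2.45% in the lowest bin, 4.66% in bin 5, 12.6% in bin 8, 29.3% in bin 9 and 57.4% (53.9 to 60.8) in the highest. The 4 lowest bins stayed between 1.72% and 2.45%, and the increase lay in the upper bins. The same bins differed in their input: the median was 320 input reads per kb in the lowest and 1202 in the highest. In the KO ranking, cut into 5 bins of 225 peaks, shared peaks were 75.6% of the lowest bin (69.4 to 81.0) and 96.4% of the highest (93.1 to 98.5). With KO replicate 1 alone, the ATPneg bins ran from 4.41% in the lowest to 72.1% in the highest, and the KO bins from 52.0% in the lowest to 90.4% in the highest, with 90.8% in the bin below it. On their own list, shared peaks had a median percentile of 69.0 in KO replicate 1 and of 92.9 in ATPneg replicate 1. The median was 35.4 for KO-only peaks in KO replicate 1 and 64.2 for ATPneg-only peaks in ATPneg replicate 1.

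**Figure D2:**
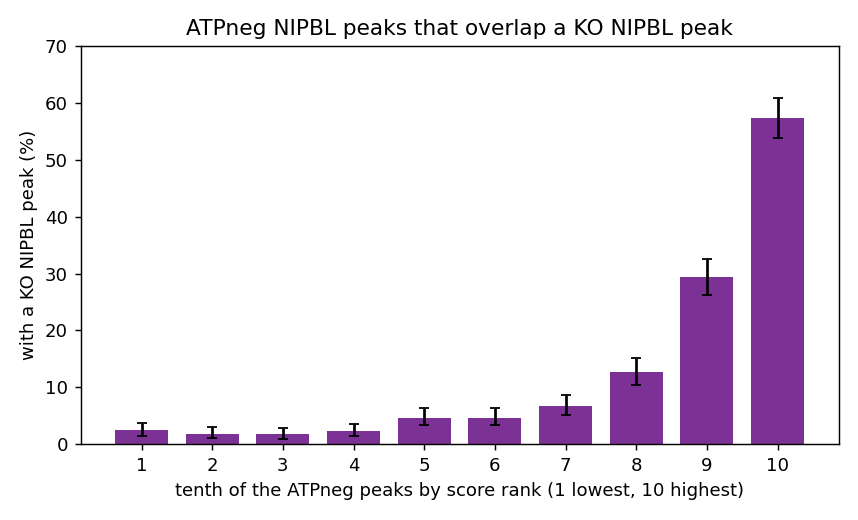
Share of ATPneg NIPBL consensus peaks that overlap a KO NIPBL consensus peak (y axis, percent), in 10 bins of the mean score percentile of the 2 ATPneg lists (x axis, lowest to highest). Bars are shares and error bars 95% exact binomial intervals; the share is 2.45% in the lowest and 57.4% in the highest bin.

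Widths depended on the list in which a peak was called. The median width was 125 bp for shared peaks as called in KO, 135 bp for KO-only and 126 bp for ATPneg-only peaks. The upper quartile was 154, 243 and 150 bp in the same order. As called in ATPneg, shared peaks had a median of 153 bp and an upper quartile of 204 bp, both above those of ATPneg-only peaks. With KO replicate 1 alone, the median was 119 bp for shared and 115 bp for KO-only peaks, and the upper quartile 140 and 157.5 bp. Peaks over 500 bp numbered 8 shared, 5 KO-only and 41 ATPneg-only, and the widest was an ATPneg-only peak of 1464 bp.

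The input was dense under almost every member. The mean of the 2 input columns per kb was over 100 reads at 1008 of 1011 shared peaks, at 109 of 114 KO-only peaks and at 7070 of the 7134 ATPneg-only peaks that had an input count. That is 99.7%, 95.6% and 99.1%, against 68.2% of all 61724 merged NIPBL regions. These regions are not a set of consensus peaks: 33.1% of them met a WT NIPBL consensus peak. They also leave out 176 of the ATPneg-only peaks, and the same holds wherever they are the comparator below. Median densities were 1455 input reads per kb at shared, 3580 at KO-only and 532 at ATPneg-only peaks, against 202 at all merged regions. With KO replicate 1 alone the densities were 1180 at shared and 904 at KO-only peaks, so that KO-only peaks no longer had the highest, and 99.8% of shared, 96.3% of KO-only and 99.003% of ATPneg-only peaks were dense. Each result over whole classes below thus describes places of dense input, and the part of the input in it was not tested.

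**Figure D3:**
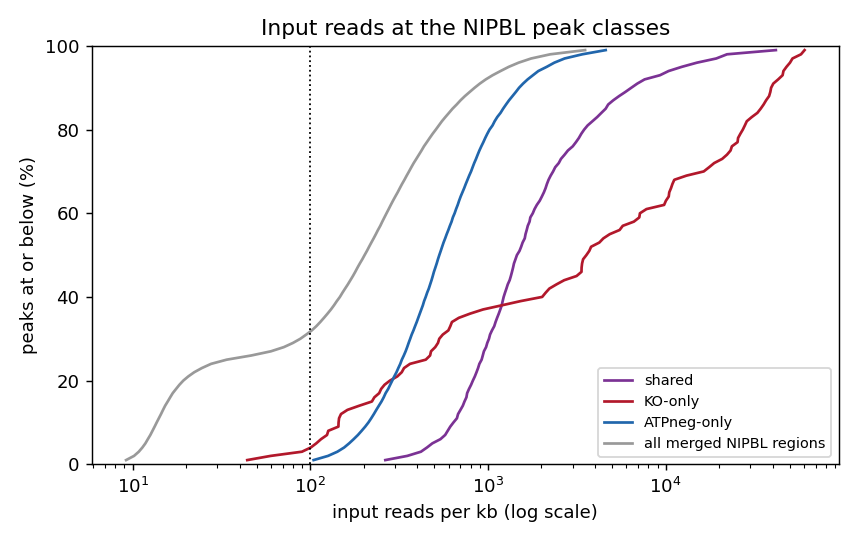
Cumulative share of peaks (y axis, percent) at or below a density of input reads per kb (x axis, log scale; mean of the KO and WT input columns) for shared, KO-only and ATPneg-only NIPBL peaks and for all merged NIPBL regions. The dotted line marks 100 reads per kb; the medians are 1455, 3580, 532 and 202.

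Reads of the KO libraries could be set against those of WT, since both have counts. At the 1010 merged regions of shared peaks, median CPM was 86.2 and 85.6 in KO and 77.0 and 76.3 in WT, with TMM scaling. At the 6962 regions of ATPneg-only peaks it was 21.1 and 21.2 in KO and 19.3 and 19.4 in WT. On this scale the KO medians at the places called in ATPneg alone were above those of WT. At the 110 regions of KO-only peaks the medians were 226 and 249 in KO and 205 and 171 in WT. The ratio of ChIP to matched input, each scaled to its total over the regions, had a median of 1.56 and 1.57 in KO and 1.51 and 1.53 in WT at shared regions. At ATPneg-only regions it was 1.22 and 1.24 in KO and 1.29 and 1.33 in WT. At KO-only regions it was 1.08 and 1.1003 in KO and 1.30 and 1.11 in WT. At all merged regions the ratio was 1.05 and 1.04 in KO and 1.25 and 1.29 in WT.

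CTCF shares differed between classes and by CTCF list. At WT CTCF peaks, the intervals of shared and KO-only peaks overlapped, and ATPneg-only peaks lay below both. The WT CTCF share also ran from 1.23% in the lowest to 27.5% in the highest score bin of the ATPneg peaks. The part of score rank in the class shares was not tested. WT CTCF consensus peaks were met by 29.97% of shared peaks (27.2 to 32.9), 32.5% of KO-only peaks (23.99 to 41.9) and 3.18% of ATPneg-only peaks (2.78 to 3.61), against 1.28% of all merged NIPBL regions. KO CTCF consensus peaks were met by 2.97% of shared, 37.7% of KO-only and 0.266% of ATPneg-only peaks, against 0.481% of all merged NIPBL regions. With KO replicate 1 alone, the WT CTCF shares were 18.9%, 8.09% and 2.92% and the KO CTCF shares 1.64%, 9.47% and 0.3001%, so that the WT CTCF share of KO-only peaks lay below that of shared peaks. The 16606 WT CTCF peaks split accordingly. Of them, 15777 lay at a KO CTCF peak, and 43 of these (0.273%) held a KO NIPBL peak and 29 (0.184%) an ATPneg NIPBL peak. The other 829 lay at no KO CTCF peak, and 297 of these (35.8%) held a KO NIPBL peak and 501 (60.4%) an ATPneg NIPBL peak. KO replicate 1 alone had a NIPBL peak at 45 of the 15777 (0.285%) and at 341 of the 829 (41.1%). The median input density was 534 reads per kb at the 829 and 31.5 at the regions of the 15777, and 69.5% and 3.65% of them were dense.

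The CTCF peaks under the classes were of these kinds. Among the 1011 shared peaks, 290 met a WT CTCF peak without a KO CTCF peak, 13 met both and 17 a KO CTCF peak alone. Among the 114 KO-only peaks, 7 met a WT CTCF peak without a KO one, 30 met both and 13 a KO CTCF peak alone. The 2 KO lists differed here: of the peaks outside the ATPneg consensus, 27.4% of 387 in KO replicate 2 met a WT CTCF peak, and 8.09% of 507 in KO replicate 1.

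Peaks of H3K27ac, the mark of active enhancers and promoters, covered most members of each class. They met 91.9% of shared peaks (90.03 to 93.5), 61.4% of KO-only peaks (51.8 to 70.4) and 95.2% of ATPneg-only peaks (94.7 to 95.7), against 67.6% of all merged NIPBL regions. Of these 61724 regions, 42117 had dense input and 19607 did not. H3K27ac of WT met 41753 of them, and only 2504 of these lay among the 19607. Its share in the dense regions alone was therefore above 67.6%. The 67.6% is thus not a background for classes whose peaks were nearly all dense. Whether the classes differ from dense regions was not tested. The comparators that follow mix both kinds of region in the same way. The lists labelled H3K27ac KO, which hold peaks named for H3K4me1, gave 93.2%, 85.1% and 95.2%, against 65.7% of the same mixed regions. H3K4me1, the mark of enhancers, gave 92.5%, 67.5% and 95.004% with its WT lists, against 64.2% of those regions. The classes of KO replicate 1 alone gave 93.6%, 88.95% and 95.3% with the lists labelled H3K27ac KO and 93.2%, 84.4% and 95.1% with H3K4me1 of WT. The WT H3K27ac consensus holds 174488 peaks. Among shared peaks, 284 met both CTCF and H3K27ac in WT, 19 CTCF alone, 645 H3K27ac alone and 63 neither, so most peaks with and without CTCF met H3K27ac. In KO-only peaks 14 met both, 23 CTCF alone, 56 H3K27ac alone and 21 neither. The H3K27ac share of KO-only peaks was 84.2% with KO replicate 1 alone and 49.1% with KO replicate 2 alone. Promoters held 34 shared peaks (3.36%, 2.34 to 4.67), 7 KO-only peaks (6.14%, 2.50 to 12.2) and 199 ATPneg-only peaks (2.79%, 2.42 to 3.19), and 2.28% of all merged regions.

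The other cohesin proteins met the classes differently in the KO and ATPneg lists. SMC3, a subunit of the ring, had a KO consensus peak at 34.2% of shared, 60.5% of KO-only and 1.02% of ATPneg-only NIPBL peaks. Its ATPneg peaks lay at 81.9% of shared, 9.65% of KO-only and 41.9% of ATPneg-only NIPBL peaks. RAD21, the subunit that closes the ring, had a KO peak at 98.7% of shared, 77.2% of KO-only and 47.6% of ATPneg-only peaks, and an ATPneg peak at 73.7%, 40.4% and 11.2%. WAPL, the release factor, had a KO peak at 82.0%, 39.5% and 93.9% and an ATPneg peak at 77.7%, 6.14% and 17.7% of the 3 classes in that order. SMC3, RAD21 and WAPL of ATPneg cells were all present at 590 shared (58.4%), 3 KO-only (2.63%) and 408 ATPneg-only (5.71%) peaks. Several of these shares rested on the second KO list. With KO replicate 1 alone, SMC3 had a KO peak at 21.7%, 16.6% and 0.363% and an ATPneg peak at 73.1%, 4.73% and 39.3% of shared, KO-only and ATPneg-only peaks. RAD21 then had a KO peak at 96.7%, 66.7% and 41.6% and an ATPneg peak at 52.9%, 11.4% and 9.13%, and WAPL a KO peak at 87.02%, 64.5% and 94.0% and an ATPneg peak at 57.2%, 1.58% and 15.9%. The KO-only share at SMC3 of KO was thus above that of shared peaks with both KO lists and below it with KO replicate 1 alone. All 3 proteins of ATPneg cells were then at 39.2%, 0.789% and 4.47%. SMC3 KO and SMC3 ATPneg lists hold 9377 and 31482 consensus peaks, and WAPL KO and WAPL ATPneg lists hold 45322 and 2183, so the lengths of the lists enter these shares.

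**Figure D4:**
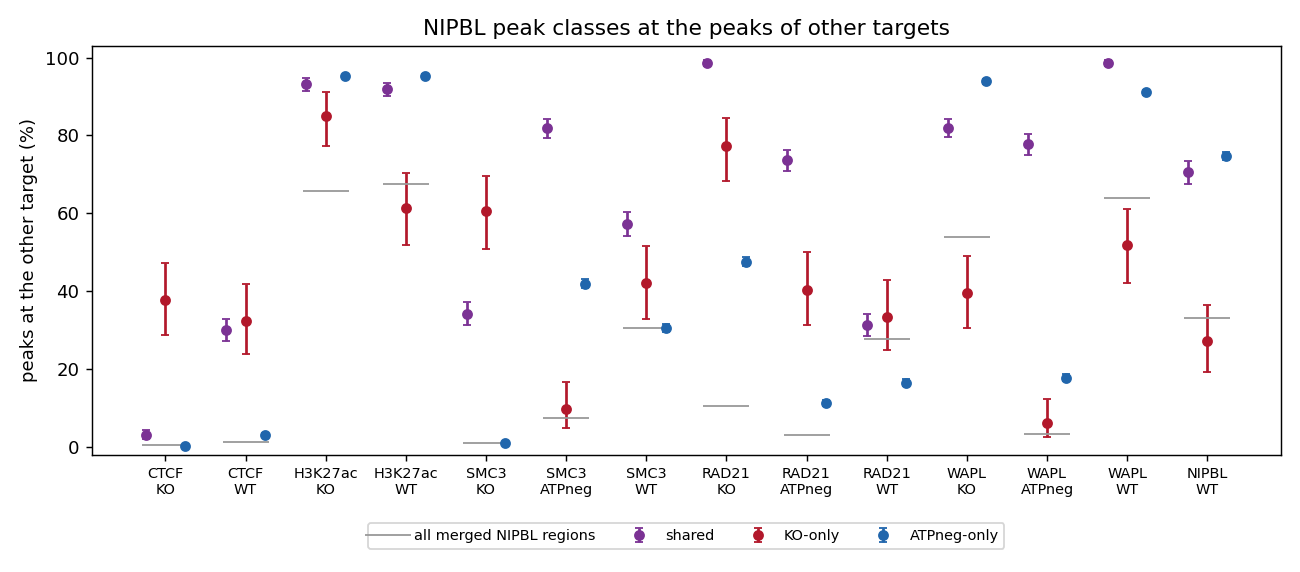
Share of shared, KO-only and ATPneg-only NIPBL peaks (y axis, percent) that overlap a consensus peak of another target in the condition named below it (x axis). Points are shares with 95% exact binomial intervals and grey lines are all 61724 merged NIPBL regions; shared peaks lie at 98.7% for RAD21 of KO and 81.9% for SMC3 of ATPneg, and KO-only peaks at 60.5% and 9.65% for SMC3 of KO and ATPneg.

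As for NIPBL, most SMC3 peaks of KO were found in ATPneg, while for WAPL most ATPneg peaks were found in KO. For SMC3, 95.9% of KO peaks lay at an ATPneg peak and 28.2% of ATPneg peaks at a KO peak. For WAPL, 4.32% of KO peaks lay at an ATPneg peak and 89.8% of ATPneg peaks at a KO peak. In all 3 targets the shorter list lay mostly within the longer one. RAD21, with 7027 KO and 9437 ATPneg peaks, shared 22.7% of KO and 16.9% of ATPneg peaks. The differences between targets were not tested.

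Few members had a sparse input, with 100 reads per kb or fewer, and these were examined singly: 3 shared, 5 KO-only and 64 ATPneg-only peaks. They were singled out after their values were seen. Scores below are on the deposited scale, so a higher score in ATPneg than in KO cannot be told apart from deeper sequencing. All 3 shared ones met a WT CTCF peak and SMC3 and WAPL peaks of KO and of ATPneg cells, and 1 met WT H3K27ac.

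The first was the promoter of Pgk1, which encodes phosphoglycerate kinase, an ATP-forming enzyme of glycolysis. It is shown because it was the one sparse-input shared peak at a start site. The bases from 250 before to 50 after the start site are printed from RefSeq (GRCm38.p6, chrX:106186850-106187149, plus strand), with every GC box in capitals (GGGCGG on either strand, the core that SP1-type factors bind).
Pgk1 promoter: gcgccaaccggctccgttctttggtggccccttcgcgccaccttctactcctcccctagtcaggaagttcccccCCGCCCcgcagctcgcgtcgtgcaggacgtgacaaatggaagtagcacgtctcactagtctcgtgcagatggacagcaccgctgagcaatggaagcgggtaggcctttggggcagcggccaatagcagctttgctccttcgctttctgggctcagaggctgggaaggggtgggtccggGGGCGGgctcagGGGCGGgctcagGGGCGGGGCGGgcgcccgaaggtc
It holds 4 GC boxes on the printed strand, of which the last pair overlap by a base, and 1 on the other strand. A GC box is present in 35.7% of the 32851 RefSeq promoters of this length. Of 29 members at a start site within this window, 6 had a RefSeq sequence.

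The Pgk1 peak spanned chrX:103382082-103382605 (mm9), 524 bp with the start site inside it. Its score was 19.5 and 15.1 in KO, 38.5 and 48.4 in ATPneg and 26.4 and 14.997 in WT, and the ATPneg scores lay above all others. CPM at its region was 35.7 and 24.7 in KO and 13.8 and 8.21 in WT, at 29.0 input reads per kb. CTCF peaks of KO and WT, H3K27ac peaks of WT, and RAD21, SMC3 and WAPL peaks of KO and of ATPneg all met it.

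The second, at chr11:5906271-5906609, lay 50.5 kb into the 3′ side of the start site of Ykt6, a SNARE protein of membrane traffic. Its score was 15.8 and 8.52 in KO, 72.5 and 86.3 in ATPneg and 18.3 and 11.0 in WT. These were the highest scores of either ATPneg list. CPM was 28.6 and 18.1 in KO and 9.14 and 5.02 in WT.

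The last of the 3, at chr8:125949740-125949866, lay 14.3 kb on the 3′ side of the start site of Tubb3, a beta tubulin. Its score was 6.65 and 6.74 in KO, 55.7 and 44.5 in ATPneg, and 16.9 in WT replicate 1, with no peak in WT replicate 2. CPM was 6.57 and 6.02 in KO and 3.57 and 1.46 in WT. Within their own lists, the KO scores stood at percentiles 11.4 and 16.4 and the ATPneg scores at 99.9 and 99.6.

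A few kb away, at chr8:125957932-125958199, stood the top ATPneg-only peak, 8.74 kb upstream of Def8, whose product regulates lysosome positioning. It scored 61.1 and 58.7 in ATPneg and 16.3 and 5.42 in WT, with no peak in either KO library. CPM was 8.29 and 5.73 in KO and 3.78 and 1.62 in WT, so CPM there was higher in the KO libraries than in WT. Input was 18.9 reads per kb, and the peak met CTCF peaks of KO and WT.

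ATPneg-only peaks included 176 that lay in no merged NIPBL region, and 6 of these lay in no annotated region of any target. The strongest of the 6 was a 347 bp peak at chr6:70672558-70672904, scored 50.1 and 63.2 in ATPneg and absent from the KO and WT lists. It lay 22 bp from a merged RAD21 region annotated within IgkJ2, IgkJ3 and IgkJ4, the joining segments of the kappa light chain locus. SMC3 of ATPneg scored 114 and 87.4 there, RAD21 of ATPneg 26.4 and 123, and WAPL of ATPneg 101 and 122. None of these proteins had a peak in KO or WT that overlapped it. This does not speak for the rest of the J segments, given the RAD21 region 22 bp away. The next was a 156 bp peak at chr16:96281082-96281237, scored 24.2 and 16.6 in ATPneg, which lay 987 bp from an H3K4me1 region annotated within Brwd1. There too, SMC3 (116 and 111), RAD21 (9.74 and 61.8) and WAPL (23.8 and 33.0) had overlapping peaks in ATPneg and none in KO or WT. A further one, scored 10.7 and 10.4, lay 71 bp from an H3K4me1 region at the start of Zbtb22, a zinc finger gene, and the last 3 scored from 5.15 to 7.96.

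The widest ATPneg-only peak, of 1464 bp at chr3:21834673-21836136, lay 140 kb upstream of Tbl1xr1, which encodes a subunit of the NCoR corepressor complex. It scored 17.0 and 15.7 in ATPneg and had no peak in the KO or WT NIPBL lists, while SMC3 had a peak there in KO and in ATPneg. Of the 64 sparse-input ATPneg-only peaks, 58 were in neither KO list, 42 met WT H3K27ac, 49 met WT WAPL, 18 met ATPneg SMC3, 2 met WT CTCF and 15 lay on unplaced contigs. Of the 19607 merged NIPBL regions with sparse input, 2504 met WT H3K27ac, 15185 WT WAPL, 77 ATPneg SMC3 and 76 WT CTCF. The WAPL count of 49 of 64 was near the share of those regions.

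**Figure D5:**
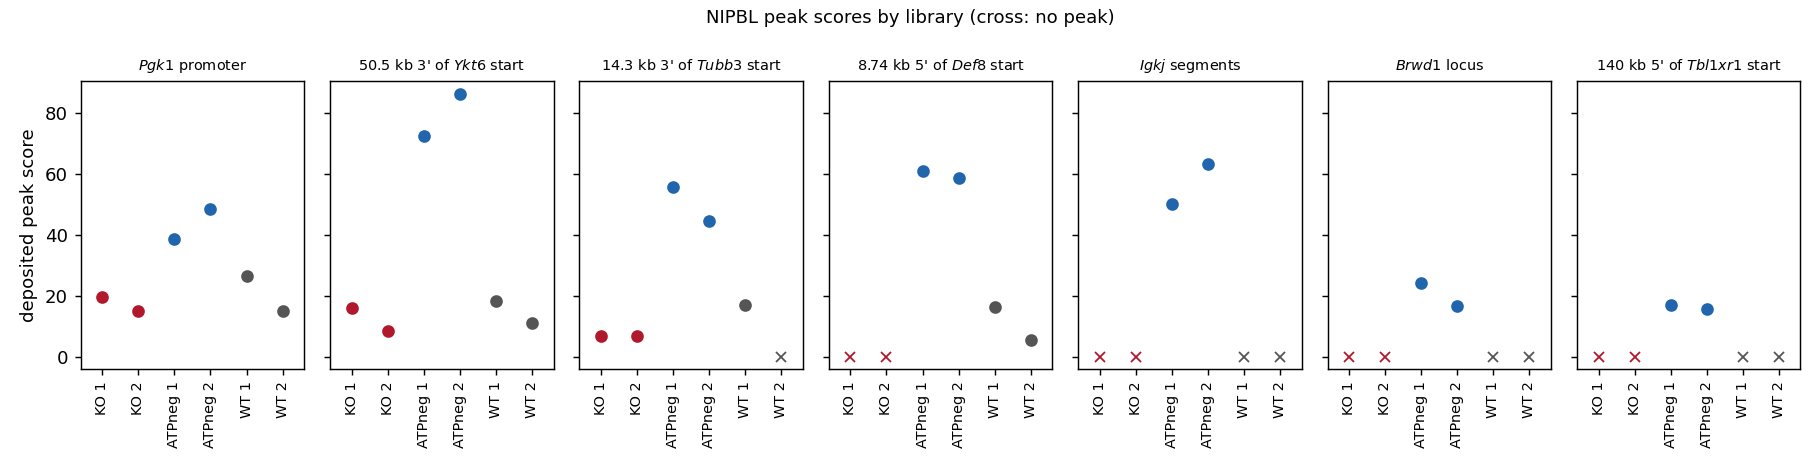
Deposited NIPBL peak score (y axis) in each KO, ATPneg and WT library (x axis) at 3 shared and 4 ATPneg-only peaks, named by the nearest annotated gene; a cross at 0 means that the list has no peak. At the Pgk1 promoter the scores are 19.5 and 15.1 in KO and 38.5 and 48.4 in ATPneg, and at the Igkj segments 50.1 and 63.2 in ATPneg with none in KO. The depth of the ATPneg libraries is unknown, so score differences between groups cannot be told apart from depth.

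The 5 sparse-input KO-only peaks were weak. Their scores in the KO lists ran from 5.19 to 11.7, and 4 of the 5 had no peak in either ATPneg list. The highest lay 11.1 kb upstream of Pak1ip1, a gene of ribosome assembly, and scored 10.5 and 10.4 in KO and none in ATPneg or WT. Its CPM was 19.4 and 38.4 in KO and 10.03 and 6.91 in WT. Peaks near Ywhaq (7.65 and 11.7), Ccdc114 (6.46 and 7.79), Sbk1 (6.96 and 7.02) and Dpep2 (8.42 and 5.19) made up the rest, and that near Ywhaq had a score of 5.32 in ATPneg replicate 2. None met an SMC3 peak of KO or of ATPneg, all 5 met a RAD21 peak of ATPneg, and 2 met a WT CTCF peak. Of the 19607 sparse-input merged NIPBL regions, 26 met SMC3 of KO, 77 SMC3 of ATPneg, 167 RAD21 of ATPneg and 76 WT CTCF.

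Peaks with dense input supplied nearly all other named members. The leading shared peaks, by mean percentile over the 4 lists, lay by Ppp1r12a, Ankrd44, Ighd3-2, Tusc1, App, Syt4, Kcna6, Jsrp1, Pcdh1 and Tdpoz3. The first, at chr10:107666762-107666884 within Ppp1r12a, the targeting subunit of myosin phosphatase, scored 37.2 and 39.0 in KO, 45.7 and 48.3 in ATPneg, and 37.2 in WT replicate 2 alone. Its CPM was 246 and 240 in KO and 218 and 224 in WT, over 6276 input reads per kb. The peak 0.1 kb from the start of Ighd3-2, a diversity segment of the heavy chain locus, at chr12:114686235-114686353, scored 31.3 and 32.2 in KO, 43.5 and 38.7 in ATPneg and 32.1 in WT replicate 2. All 10 had RAD21 peaks in KO and ATPneg and WAPL peaks in ATPneg and WT, and 7 met a WT CTCF peak. In 8 of the 10 both ATPneg scores were above both KO scores, which cannot be told apart from deeper sequencing. The exceptions were the peaks by Pcdh1, a protocadherin gene, with 36.4 and 31.1 in KO and 31.3 and 30.1 in ATPneg, and by Tdpoz3, with 31.3 and 28.1 in KO and 33.0 and 30.9 in ATPneg.

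The leading KO-only peaks, with no peak in either ATPneg list, were of 2 main kinds. Those by Zfp612, Rsrc1 and Wdr96 lay at an extreme input, of 26867, 45643 and 16276 reads per kb, and had no WT peak. The peak by Zfp612, a zinc finger gene, scored 29.7 and 28.2 in KO, and that within Rsrc1, which encodes a splicing-related protein, 28.8 and 25.4. Those by Zfp949, Cyr61, Nemf, Izumo1, Cyb561 and Sepsecs met a WT CTCF peak, an SMC3 peak of KO and at least 1 WT NIPBL peak. The peak within Zfp949 at chr9:88448077-88448198 scored 13.3 and 23.7 in KO and 21.6 and 21.3 in WT. That 41.0 kb upstream of Cyr61, a matricellular signalling protein, scored 10.5 and 26.2 in KO and 17.2 and 14.4 in WT. At these 6 peaks the score and the CPM of KO replicate 2 exceeded those of KO replicate 1, for example 78.3 against 34.9 CPM by Cyr61, with 35.7 and 24.2 CPM in WT. The remaining peak, by D17Wsu104e, scored 19.5 and 21.7 in KO, with none in WT.

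KO-only peaks were also clustered. Of the 114, 25 (21.9%) lay between 3000782 and 3038251 on chromosome 9, where 27 of the shared peaks (2.67%) and 0 of the ATPneg-only peaks lay. The input at these 25 ran from 1996 to 84187 reads per kb. Another 4 lay between 13743832 and 13745971 on chromosome 17, 2 of them at the promoter of 2700054A10Rik. Within 10 kb of another member of their class were 31.6% of KO-only, 4.55% of shared and 8.34% of ATPneg-only peaks.

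The leading ATPneg-only peaks after that by Def8 lay by Kcnh7, Gsdmc4, Aebp2, Klhl40, Dclk3, Klk1b27, Mef2a, Vwa5b1 and Bcor. All 9 met H3K27ac peaks of WT and KO and a WAPL peak of WT, and 1, by Dclk3, met WT CTCF. The peak within Kcnh7, a voltage-gated potassium channel gene, at chr2:62917989-62918126, scored 41.6 and 39.2 in ATPneg and 26.01 and 50.9 in WT. Its CPM was 36.6 and 35.8 in KO and 35.3 and 34.1 in WT. That by Bcor, a corepressor that partners BCL6, lay 34.3 kb upstream at chrX:11771773-11771931 and scored 33.2 and 37.1 in ATPneg and 24.9 and 37.3 in WT. Its CPM was 56.6 and 65.1 in KO and 72.8 and 68.0 in WT. All 9 also had a peak in at least 1 WT list.

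Genes were assigned by the nearest start site within 200 kb. A gene was counted with a class when at least 1 peak of that class was nearest to it, among the 12958 genes nearest to any merged NIPBL region. Of these, 4.75% had a shared peak, 0.54% a KO-only peak and 28.3% an ATPneg-only peak. The shares were 8.37%, 2.76% and 25.6% with KO replicate 1 alone. Shared peaks were nearest to 616 genes, KO-only peaks to 70 and ATPneg-only peaks to 3662, and 248 genes had both a shared and an ATPneg-only peak. Among the 70 genes of KO-only peaks, 52 had neither a shared nor an ATPneg-only peak. A start site within 200 kb was found for 66.6% of shared, 87.7% of KO-only and 68.7% of ATPneg-only peaks.

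No gene of any list had a KO-only peak, near the 0.54% of all genes. With KO replicate 1 alone, 2 B lineage factors, 1 pre-B gene and 1 myeloid gene had one, against 2.76% of all genes. Histone and ribosomal protein genes were not counted with KO replicate 1 alone. Among 23 B lineage transcription factors with a region, 2 had a shared peak (8.70%, against 4.75% of all genes). An ATPneg-only peak was found for 7 of them (30.4%, against 28.3% of all genes). Bcl6, a repressor that protects pre-B cells during recombination, had a shared peak 53.4 kb upstream with scores of 15.8 and 23.2 in KO, 38.3 and 35.1 in ATPneg and 19.5 and 41.9 in WT. Its ATPneg-only peak, at the promoter, scored 11.0 and 11.4 in ATPneg. Foxo1, which drives Rag expression, had an ATPneg-only peak 148 kb into its 3′ side with 33.5 and 23.5 in ATPneg, 15.7 in KO replicate 2 alone, and 11.9 and 43.2 in WT. Erg, an ETS factor, had a shared peak with 13.1 and 9.48 in KO and 9.82 and 6.50 in ATPneg, over 58258 input reads per kb. Tcf4, Runx1, Lef1, Id2 and Id3 had ATPneg-only peaks as well.

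Of 10 pre-B receptor, recombination and migration genes with a region, 1 had a shared peak and 3 an ATPneg-only peak. These are 10% and 30%, against 4.75% and 28.3% of all genes. The shared peak lay 165 kb upstream of Rag2, a subunit of the recombinase, and scored 11.6 and 15.1 in KO, 28.1 and 20.3 in ATPneg and 12.7 and 20.1 in WT. The highest ATPneg-only peak of each other gene was by Cxcr4, the receptor that retains progenitors in the marrow (16.7 and 20.6 in ATPneg), Cd24a (13.6 and 10.1) and the kinase gene Syk (5.23 and 5.66).

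In the energy stress and glycolysis list, 3 of 13 genes with a region had a shared peak (23.1%) and 3 an ATPneg-only peak (23.1%). The shares of all genes were 4.75% and 28.3%. Besides Pgk1, the shared ones were Hk1, the first enzyme of glycolysis, with 14.6 and 10.5 in KO and 22.5 and 25.4 in ATPneg, and Ppargc1a, a coactivator of mitochondrial genes, with 11.8 and 5.06 in KO and 27.8 and 16.8 in ATPneg. Hk1 and Ppargc1a also had an ATPneg-only peak, as did Egln3, an oxygen-sensing hydroxylase. Hk1 and Ppargc1a lay over 1835 and 848 input reads per kb. Oxidative phosphorylation genes had 0 shared and 2 ATPneg-only members of 8, Cox7c and Cox4i1.

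Of 12 genes of cohesin, its regulators and CTCF with a region, 0 had a shared peak and 2 an ATPneg-only peak: Stag2, a cohesin subunit, with 5.41 in KO replicate 1 alone and 12.98 and 6.72 in ATPneg, and Brwd3, a relative of Brwd1. Proliferation genes had 0 shared and 2 ATPneg-only members of 10, Ccnd3 and Mycn. Stress and chaperone genes had 0 shared and 4 ATPneg-only members of 12, Hspa8, Jun, Ier2 and Fosb. Histone genes had 0 and 3 of 19, and ribosomal protein genes 0 and 5 of 28. Markers of other cells had 0 shared and 0 ATPneg-only members of 10 T cell and 5 myeloid genes, and 1 shared member, Hbb-b1, of 2 erythroid genes. The shares of 15.8% to 33.3% with an ATPneg-only peak in the lists from B lineage factors to ribosomal genes stood on both sides of the 28.3% of all genes. The share of 23.1% with a shared peak among energy genes was 3 genes of 13, against 4.75% of all genes. In the energy list, 4 genes had a shared and 1 an ATPneg-only peak with KO replicate 1 alone. These are 30.8% and 7.69%, against 8.37% and 25.6% of all genes. None of these lists was tested.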

How the data were processed

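Small pre-B cell ChIP-seq libraries were compared as deposited. The submitters' processing notes name the mm9 build and, without versions, BWA, Picard, MACS2, bedtools, featureCounts and edgeR. The deposited peak lists give a score per peak made by the authors, whose scale is not named. In the deposited counts, each merged region has its reads in the KO, WT and input libraries; ATPneg counts were not used here. The authors' normalized signal tables supplied only region coordinates and gene annotation. The files hold 2 external input columns, not used here.

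Overlaps (bedtools 2.31.1) needed at least 1 bp. A peak took the annotation of the overlapping merged NIPBL region, or of the next target's where there was none, which extends the planned use of the NIPBL table. Input density is the mean of the KO and WT input columns per kb, and over 100 is dense. CPM used TMM factors (edgeR 4.0.16, R 4.3.3). Reads of the KO replicates were not identical (chi-square per region 1.27 over 59364 regions, 3.74 between WT replicates over 61724). Library values (n = 2 per group) were compared by exact permutation tests (scipy 1.17.1). Their p is the share of label arrangements with a difference at least as large, and it does not measure the spread within a group. Per the labels the replicates are biological. Shares carry exact (Clopper-Pearson) 95% intervals. Named genes were the 10 highest by mean score percentile per class, passing over predicted, RNA, olfactory, vomeronasal and Riken symbols, plus members of fixed lists. Kinase genes with an Rps6k symbol were left out of the ribosomal list. Members, lists and tests were chosen with earlier results of these data known. Functions were tested on simulated peak lists. Alternatives are given in the closing section.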

Additional observations from a re-analysis of the deposited data

How the results depend on the processing

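No paired analysis was possible because the results come from overlaps of peak lists and from library values that no block can enter, and nothing in the labels ties KO to ATPneg libraries. Across the alternatives, 154 values were labelled the same and 109 moved. A share or width was the same if it moved by less than the spread between libraries, which rests on 2 libraries per group. A number of consensus peaks was the same if it changed by at most 1.5 times. A library difference was the same if it kept its sign, whatever its size, and none of the 5 turned sign (with equal lists, their number has no difference by construction). The H3K27ac difference went from -7.13 to -67.6 percentage points without dense-input regions, and the CTCF difference from 15.8 to 3.71 with equal lists. Some settings leave a library difference unchanged by construction.

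Leaving out each library in turn gave 1125 to 2333 KO and 8154 to 14522 ATPneg peaks, 78.3% to 92.3% of KO and 7.14% to 22.3% of ATPneg peaks shared, median widths of 118 to 125 (shared), 115 to 145 (KO-only) and 119 to 126 bp (ATPneg-only), CTCF shares of 18.9% to 30.1%, 8.09% to 35.6% and 1.92% to 2.92%, H3K27ac shares of 91.0% to 92.9%, 49.1% to 84.2% and 94.7% to 95.6%, and promoter shares of 3.23% to 3.43%, 3.75% to 8.05% and 2.71% to 2.86% in the same order.

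Without peaks in a dense merged NIPBL region, which keeps the peaks that lie in no merged NIPBL region, 8 KO and 235 ATPneg peaks remained, with 37.5% and 1.28% shared. Shared peaks then had a median width of 339 bp, 100% CTCF, 33.3% H3K27ac and 33.3% promoters (3 peaks), KO-only peaks 111 bp, 0% H3K27ac and 0% promoters (5 peaks), and ATPneg-only peaks 117 bp, 0.862% CTCF, 84.9% H3K27ac and 3.02% promoters. In an alternative chosen after seeing the data, only peaks whose own annotated region, of NIPBL or the next target, had 100 input reads per kb or fewer were kept; 8 KO and 67 ATPneg peaks remained with 37.5% and 4.48% shared, the 3 shared and 5 KO-only peaks had the same values, and ATPneg-only peaks had 124.5 bp, 65.6% H3K27ac and 3.13% promoters. With the 2048 highest-scored peaks per list, ATPneg had 1535 peaks and 63.2% of KO and 43.8% of ATPneg peaks were shared. Shared peaks then had 123 bp, 34.5% CTCF, 93.0% H3K27ac and 4.17% promoters. ATPneg-only peaks had 134 bp, 10.9% CTCF, 93.9% H3K27ac and 3.13% promoters. KO-only peaks had 3.07% promoters, 23.5% CTCF and 81.8% H3K27ac, against 32.5% CTCF and 61.4% H3K27ac in the main setting. Those 2 changes were labelled the same only because the spreads between libraries were 13.6 and 24.8 percentage points. With scores at least 2 times the lowest, ATPneg had 5135 peaks, 14.7% of them shared; shared peaks had 123 bp, 33.4% CTCF, 91.1% H3K27ac and 4.11% promoters, KO-only peaks 2.56% promoters, and ATPneg-only peaks 128 bp, 5.25% CTCF and 2.90% promoters. With the union of replicates there were 3256 KO and 16589 ATPneg peaks, 85.0% and 16.7% shared; shared peaks had 119 bp, 16.5% CTCF and 3.22% promoters, KO-only peaks 115 bp, 18.0% CTCF and 4.69% promoters, and ATPneg-only peaks 121 bp and 1.03% CTCF. Where a peak in either library of the other group counted, 93.5% of KO and 30.3% of ATPneg peaks were shared, with 90.7% H3K27ac in shared, 8.22% promoters in KO-only, and 1.67% CTCF, 95.8% H3K27ac and 2.66% promoters in ATPneg-only peaks. Taking replicate 2 peaks gave median widths of 122, 136 and 121 bp for the 3 classes, and an overlap of 50% gave 141 bp for KO-only. CTCF WT replicate 1 alone gave 34.4% for shared and 50% for KO-only peaks, CTCF of KO 2.97% for shared and 0.266% for ATPneg-only, and H3K27ac of KO 93.2% for shared. The cause of these changes was not tested, beyond the smaller number of peaks that the stricter settings leave.

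The unknown depth of the ATPneg libraries limits every difference in number of peaks and in score. The dense input limits every class share: outside it 3 shared and 5 KO-only peaks are left. With 2 libraries per group the exact permutation test cannot pass 0.05.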
